A study of Mus musculus with 18 samples.

Results

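Healing of the control tooth socket was followed over 1 week in 6 of the 18 RNA-seq libraries of a mouse study of extraction sockets: 3 libraries taken 7 d after removal of the mandibular first molar, and 3 taken at 0 d. The members were chosen by the titles of the samples, which give the arm, the day and the replicate, and all genes of the deposited table entered the comparison. Control mice had the molar extracted with no periodontitis, a chronic inflammation that destroys the tooth's supporting tissue, and by the labels the 7 d and 0 d groups differ only in the day. The other libraries are control sockets at 3 d and a periodontitis arm at the same 3 days, each with 3 biological replicates. The labels read here state neither strain, age and sex nor the hour of sampling, the interval between extraction and collection at 0 d, or the parts of the jaw collected.

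As background, a tooth socket fills with a blood clot, is invaded by neutrophils and macrophages, and is then replaced by wound tissue rich in fibroblasts and vessels. Osteoblasts lay down a collagen matrix that mineralizes into woven bone, some of them become osteocytes within it, and osteoclasts, which are fused cells of the macrophage line, resorb damaged and surplus bone. The balance is steered by cytokines, by Wnt, bone morphogenetic protein and hedgehog signals, and by the osteoclast signal RANKL with its decoy receptor osteoprotegerin.

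The labels name the molar as the tissue. Osteoblast and bone matrix genes were abundant in all 6 libraries, with Col1a1, a chain of type I collagen, taking 3.19% to 7.55% of counts, while the dentine gene Dspp was high in 1 library only: 18.7, 2.38 and 0.627 CPM at 7 d, against 588, 9.13 and 8.17 CPM at 0 d. Totals lay between 14953146 and 17127281 counts per library and 23729 to 25699 genes had a count. Levels are given as CPM, counts scaled to a common library size with TMM factors. Some libraries stood apart from others of their group. The third 7 d replicate was far above the other 7 d replicates for 3 genes, Dmbt1, Wfdc18 and Bpifb9a. The first 7 d replicate had more collagen counts than the other 7 d replicates, and the third 0 d replicate had fewer collagen and more marrow-cell and cycling-cell counts than the other 0 d replicates. In bulk tissue, fewer cells of a type and less RNA per cell cannot be told apart.

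A large part of the transcriptome differed between the 7 d and the 0 d sockets. Of 18697 genes tested, 7724 (41.3%) differed between 7 d and 0 d at a Benjamini-Hochberg adjusted p under 0.05 in edgeR's quasi-likelihood test, and these are the genes named below as called. Of them 3731 (20.0% of those tested) were higher and 3993 (21.4%) lower at 7 d. With library totals in place of TMM scaling the split was 4656 higher and 3146 lower, and the median log2 fold change of all genes was 0.186 on that scale, against 0.046 with TMM. Changes of at least 2-fold were made by 1731 genes that rose and 1928 that fell, and changes of at least 8-fold by 97 that rose and 240 that fell. CPM of the 2 groups did not overlap for 50.4% of genes. Called protein-coding genes numbered 3201 higher and 3724 lower among 15444 tested, and called lincRNA genes 144 higher and 61 lower among 597 tested. For the named genes below whose library values are given, the groups did not overlap unless the values show it. Nothing on overlap is meant for genes given by fold change alone. Fold changes are log2 values of 7 d over 0 d with their standard error.

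**Figure D1:**
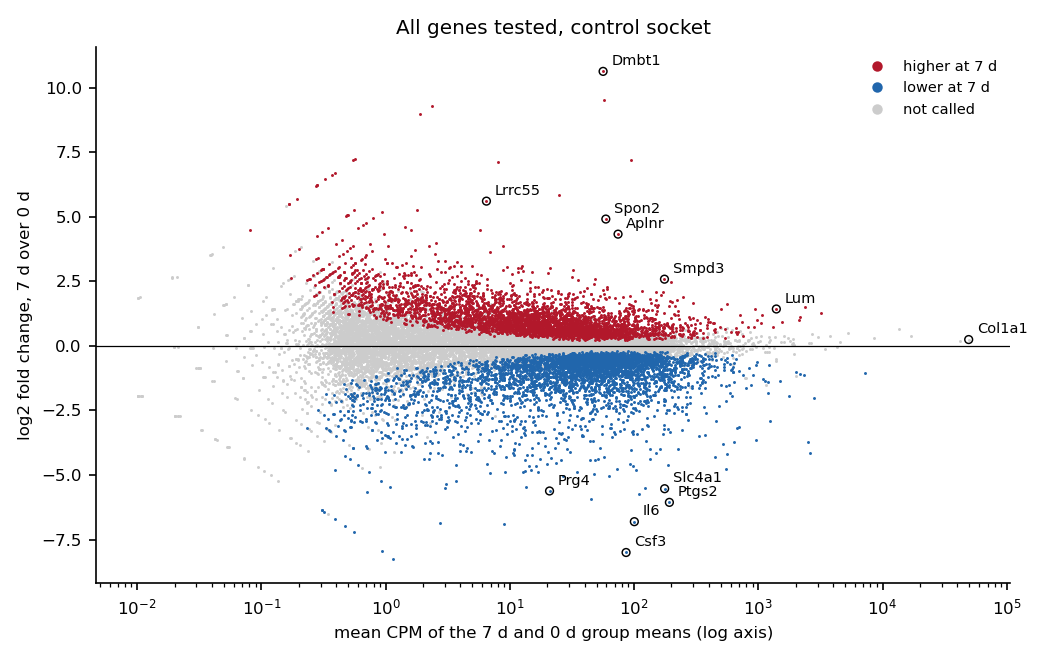
Log2 fold change of 7 d over 0 d against the mean CPM of the 2 group means (log axis) for the genes tested, with genes called higher at 7 d in red, lower in blue and the rest in grey. Csf3, Il6, Ptgs2, Prg4 and Slc4a1 lie among the lowest points, Dmbt1 is the highest gene marked, and Col1a1 lies near the zero line at the right.

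Gene lists differed in direction. Cytokine, interferon, immediate early, ribosome biogenesis, red cell and platelet lists had no member called higher, whereas lists of osteoblast regulators, bone matrix, osteoclast, Wnt and insulin-like growth factor genes held called members in both directions. Medians over the 46 lists ran between -4.20 for red cell genes and 0.76 for matrix metalloproteinases, against 0.046 for all genes tested. A list with close to 20.0% of its members called higher and 21.4% called lower did not stand apart from all genes by its counts.

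**Figure D2:**
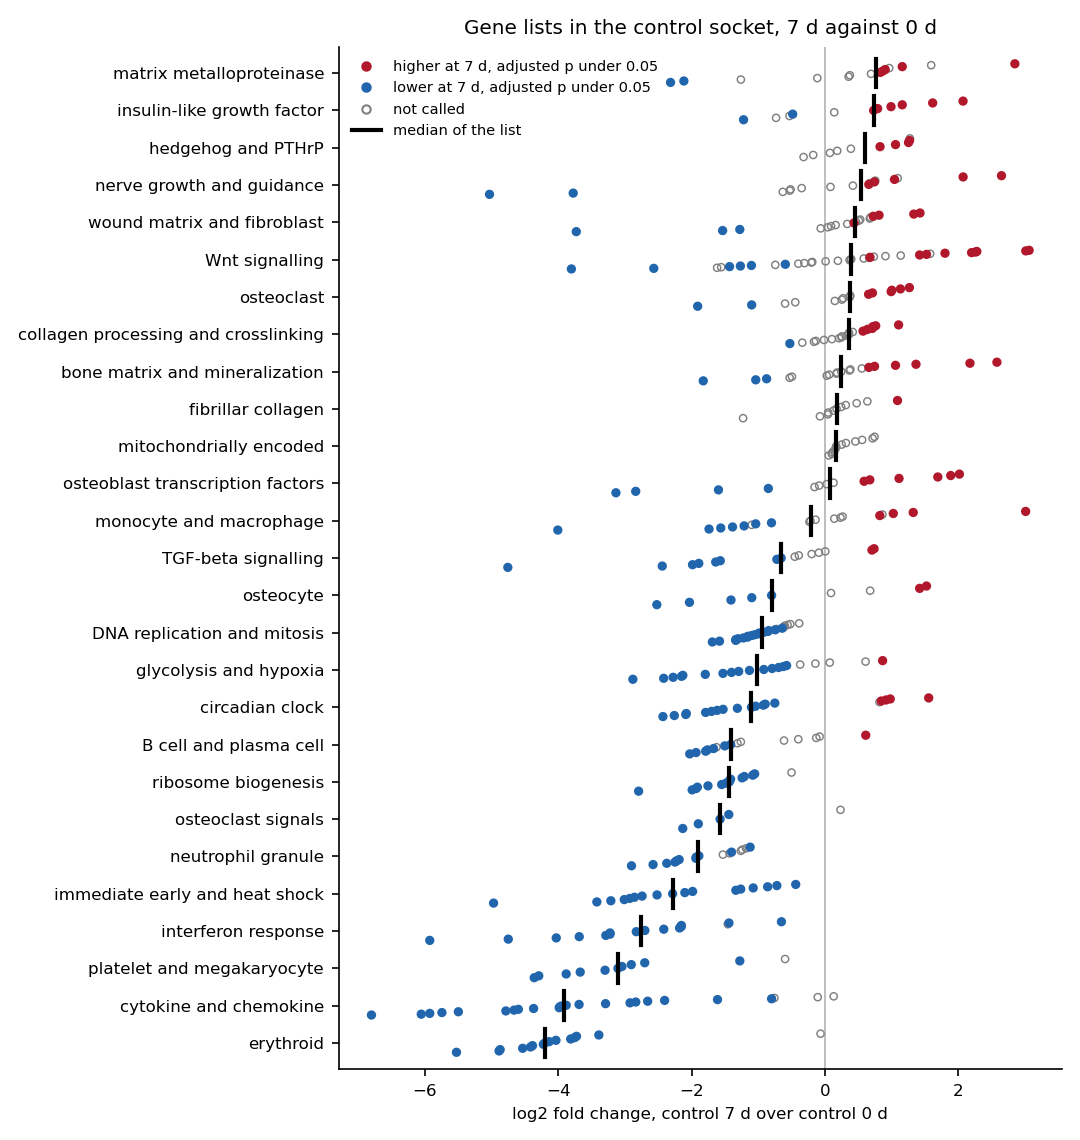
Log2 fold change of 7 d over 0 d for each tested member of 27 gene lists, ordered by the list median (black bar), with called members filled in red (higher at 7 d) or blue (lower) and the rest as open grey circles. The 5 lists with the lowest medians, between -4.20 and -2.28, hold no red point, while lists such as the osteoblast and Wnt lists hold red and blue points side by side.

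Inflammatory mediators were among the genes with the largest falls. Of 24 cytokine, chemokine and prostanoid genes tested, 21 fell and none rose, with a median of -3.92. Il6, a cytokine that drives the acute phase response, had 2.46, 0.314 and 2.51 CPM at 7 d, against 230.4, 184 and 183 CPM at 0 d (-6.80 ± 0.80, adjusted p = 8.38e-06). Ptgs2, the inducible cyclooxygenase that makes prostaglandin precursors, had 9.54, 3.51 and 4.04 CPM at 7 d, against 532, 319.6 and 287 CPM at 0 d (-6.06 ± 0.65, adjusted p = 3.48e-06). For both genes every 0 d library lay far above every 7 d library, and without the first 7 d replicate the change of Ptgs2 was -6.64. Csf3, the growth factor for neutrophils, had 1.72, 0.0627 and 0.228 CPM at 7 d, against 224, 179 and 113 CPM at 0 d (-8.00 ± 0.59, adjusted p = 1.03e-07), and without the first 7 d replicate the change was -10.10. Csf2, which acts on granulocytes and macrophages, was at 0 counts in every 7 d library and at 2.97, 2.40 and 1.52 CPM at 0 d, so that it was at least 38.1-fold lower when 3 counts over the group stand for 0.

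The neutrophil-attracting chemokines Cxcl1, Cxcl2 and Cxcl3 fell together. Cxcl1 had 6.09, 0.690 and 8.94 CPM at 7 d, against 315, 232 and 170.5 CPM at 0 d (-5.50 ± 0.67, adjusted p = 1.21e-05). Cxcl2 had 9.36, 0.188 and 2.45 CPM at 7 d, against 266, 217 and 161 CPM at 0 d (-5.75 ± 0.88, adjusted p = 9.46e-05). The second 7 d replicate was the lowest for both genes, and every 0 d library lay above every 7 d library. Without the third 7 d replicate the change of Cxcl1 was -6.13, and without the first 7 d replicate that of Cxcl2 was -7.31 and that of Cxcl3 -5.53, against -4.66 with all libraries. Cxcl5, another ligand of the same receptor, did not follow: it had 90.4, 6.09 and 13.1 CPM at 7 d, against 33.6, 33.0 and 33.3 CPM at 0 d (0.13 ± 0.75, adjusted p = 0.911), with the first 7 d replicate above every 0 d library and the other 7 d replicates below them. Without that replicate Cxcl5 was called lower (-1.79 ± 0.63, adjusted p = 0.0343).

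Interleukin-1 and tumour necrosis factor genes also fell. Il1b, which encodes interleukin-1 beta, had 31.4, 7.34 and 8.83 CPM at 7 d, against 299.9, 231 and 223 CPM at 0 d (-3.99 ± 0.61, adjusted p = 9.54e-05), and -4.96 without the first 7 d replicate. Tnf had 2.15, 0.816 and 0.968 CPM at 7 d, against 6.28, 9.58 and 9.08 CPM at 0 d (-2.66 ± 0.47, adjusted p = 0.000332). The monocyte chemokine Ccl2 had 4.92, 1.57 and 7.58 CPM at 7 d, against 115, 83.6 and 94.8 CPM at 0 d (-4.37 ± 0.53, adjusted p = 1.1e-05). In all 3 genes the lowest 0 d library was above the highest 7 d library. Genes for other cytokines of the interleukin-6 family fell as well. Lif, leukaemia inhibitory factor, had 15.8, 13.7 and 15.2 CPM at 7 d, against 469, 329.8 and 286 CPM at 0 d (-4.60 ± 0.26, adjusted p = 1.21e-08). The groups of Lif lay far apart, with close values at 7 d. Osm, which encodes oncostatin M, had 2.52, 2.51 and 3.25 CPM at 7 d, against 54.2, 43.5 and 31.5 CPM at 0 d (-3.96 ± 0.25, adjusted p = 2.94e-08). Il11, which acts on bone cells and fibroblasts, had 1.42, 0.565 and 1.08 CPM at 7 d, against 34.0, 24.0 and 27.3 CPM at 0 d (-4.79 ± 0.41, adjusted p = 4.74e-07). Il10, whose product restrains inflammation, fell in the same direction (-2.84 ± 0.57, adjusted p = 0.000933). The homing chemokine Cxcl12 had 256, 312 and 308 CPM at 7 d, against 273, 299 and 372 CPM at 0 d and was not called (-0.11 ± 0.19, adjusted p = 0.706).

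The 3 d libraries place these falls within the week. At 0 d, 3 d and 7 d, Il6 averaged 199 ± 26.9, 3.76 ± 1.78 and 1.76 ± 1.25 CPM, and Il1b 251 ± 42.3, 55.3 ± 19.7 and 15.9 ± 13.5 CPM (SD, n = 3 each). Both were called lower at 3 d than at 0 d (Il6 -5.73 ± 0.74, adjusted p = 3.6e-05, Il1b -2.18 ± 0.56, adjusted p = 0.00684). Neither passed the threshold between 7 d and 3 d (Il6 -1.07 ± 0.80, adjusted p = 0.409, Il1b -1.80 ± 0.57, adjusted p = 0.0532). Over the list 18 genes were called lower at 3 d than at 0 d, and 8 lower at 7 d than at 3 d. Of all genes tested 5.87% were called lower at 7 d than at 3 d, and 18.3% lower at 3 d than at 0 d.

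**Figure D3:**
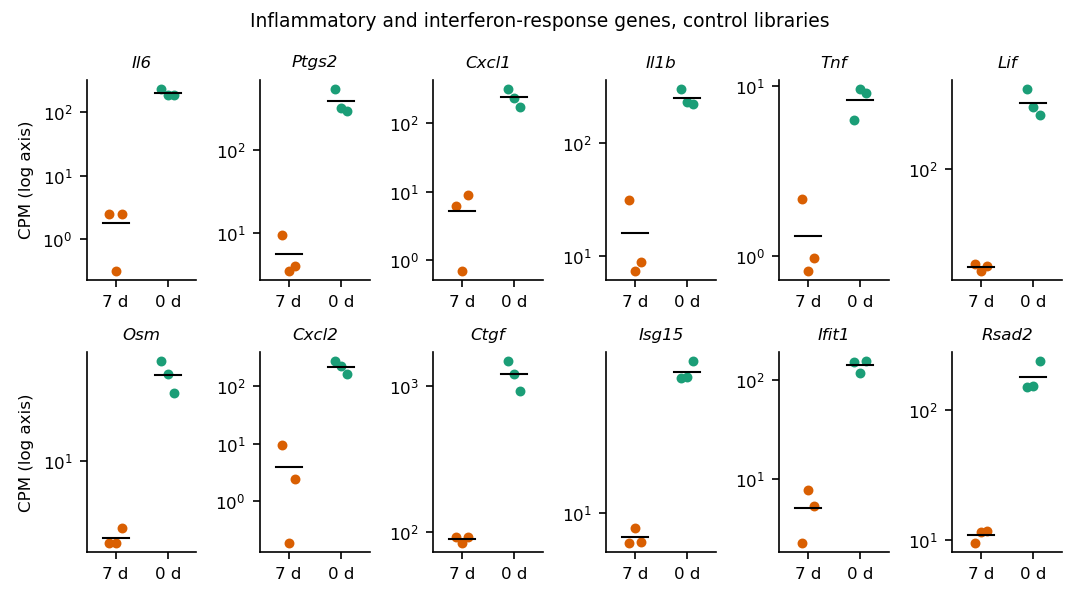
CPM on a log axis in each control library at 7 d (orange, left) and 0 d (green, right) for 12 inflammatory, wound and interferon-response genes, with bars at the group means. In every panel the 3 libraries of 7 d lie below the 3 libraries of 0 d.

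Promoter sequence is shown for the 3 genes of the cytokine list with the largest falls among those that hold a match to the pattern GGG, any 2 bases, TTTCC, found in sites bound by NF-kB, the family of transcription factors that drives many inflammatory genes. Each run gives the 250 bases before the RefSeq transcription start (build GRCm38.p6), 5′ to 3′ on the strand of the gene, with matches on either strand in capitals. They are Il6 (chr5:30012864-30013113, plus strand), Cxcl2 (chr5:90903649-90903898, plus strand) and Cxcl1 (chr5:90890995-90891244, plus strand).
Il6: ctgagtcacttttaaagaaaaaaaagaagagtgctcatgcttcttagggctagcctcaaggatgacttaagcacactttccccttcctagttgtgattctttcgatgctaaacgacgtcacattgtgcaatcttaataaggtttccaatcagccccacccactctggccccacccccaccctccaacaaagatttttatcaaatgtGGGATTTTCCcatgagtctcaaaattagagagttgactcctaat
Cxcl2: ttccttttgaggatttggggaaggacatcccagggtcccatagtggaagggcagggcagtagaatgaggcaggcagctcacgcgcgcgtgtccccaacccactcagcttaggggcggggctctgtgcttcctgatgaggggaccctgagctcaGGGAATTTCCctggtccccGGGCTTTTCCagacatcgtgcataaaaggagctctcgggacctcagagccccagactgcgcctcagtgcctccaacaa
Cxcl1: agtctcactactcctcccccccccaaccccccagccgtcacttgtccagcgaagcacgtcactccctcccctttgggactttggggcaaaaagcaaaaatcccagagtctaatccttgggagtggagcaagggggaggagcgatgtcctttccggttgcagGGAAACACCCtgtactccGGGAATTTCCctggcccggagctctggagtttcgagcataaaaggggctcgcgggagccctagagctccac
The match begins 44 bases before the start in Il6. Cxcl2 holds 2 matches that begin 97 and 78 bases before it, and Cxcl1 holds 2 that begin 89 and 71 bases before it. A match was held by 5 of the 17 tested list members with a promoter in the table, a member being counted if any of its windows held it. All 5 were called lower, as were 21 of the 24 list members tested. By window, which is another unit, 1.41% of all 32851 held it.

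Interferon-stimulated genes, which carry the antiviral response of a cell, fell as a group. Of 16 tested, 15 fell and none rose, with a median of -2.77. Rsad2, which encodes viperin, had 9.42, 11.5 and 11.7 CPM at 7 d, against 149, 150.5 and 234 CPM at 0 d (-4.03 ± 0.30, adjusted p = 1.03e-07). Ifit1 had 2.28, 7.90 and 5.35 CPM at 7 d, against 149, 116 and 153 CPM at 0 d (-4.75 ± 0.45, adjusted p = 1.17e-06). Isg15, a ubiquitin-like protein that is joined to others during the response, had 6.65, 8.22 and 6.78 CPM at 7 d, against 62.0, 62.7 and 77.6 CPM at 0 d (-3.22 ± 0.25, adjusted p = 1.76e-07). In none of the 3 did a library reach the range of the other group. Cxcl10, a chemokine for activated T cells, had 1.05, 1.88 and 1.42 CPM at 7 d, against 100.1, 65.8 and 100.3 CPM at 0 d (-5.93 ± 0.55, adjusted p = 9.82e-07). Oas2, Irf7, Ifit3 and Usp18 fell by 2.42, 2.83, 3.69 and 2.70 on the log2 scale. Cxcl9, another chemokine of the class, was the member not called, with 1.48, 2.07 and 1.65 CPM at 7 d, against 3.57, 3.88 and 6.83 CPM at 0 d (-1.46 ± 0.69, adjusted p = 0.104). At 3 d, 14 of the 16 genes were called lower than at 0 d, and 3 were called lower at 7 d than at 3 d. The median of the list was -2.59 for 3 d over 0 d and -0.24 for 7 d over 3 d.

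The pattern GAAA, any 2 bases, GAAA is the core of the interferon-stimulated response element, to which STAT and interferon regulatory factors bind. It is shown in capitals in the same 250-base windows for Cxcl10 (chr5:92348890-92349139, minus strand), Ifit1 (chr19:34640639-34640888, plus strand) and Rsad2 (chr12:26456453-26456702, minus strand), the 3 called members with the largest falls that hold it.
Cxcl10: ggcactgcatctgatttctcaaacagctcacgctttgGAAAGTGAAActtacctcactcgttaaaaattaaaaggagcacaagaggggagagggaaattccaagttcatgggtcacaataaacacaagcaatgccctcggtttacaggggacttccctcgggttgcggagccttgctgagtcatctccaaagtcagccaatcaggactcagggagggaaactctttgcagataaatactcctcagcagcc
Ifit1: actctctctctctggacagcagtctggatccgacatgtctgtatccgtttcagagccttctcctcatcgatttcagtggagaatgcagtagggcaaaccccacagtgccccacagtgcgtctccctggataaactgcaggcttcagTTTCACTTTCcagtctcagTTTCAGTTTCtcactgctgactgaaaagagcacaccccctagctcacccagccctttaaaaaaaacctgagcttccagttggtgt
Rsad2: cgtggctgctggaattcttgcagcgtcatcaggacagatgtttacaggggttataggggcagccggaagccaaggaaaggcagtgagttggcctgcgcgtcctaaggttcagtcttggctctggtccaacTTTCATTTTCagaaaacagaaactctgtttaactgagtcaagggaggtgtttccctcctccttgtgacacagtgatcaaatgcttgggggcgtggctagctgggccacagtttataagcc
The 2 matches of Ifit1 begin 104 and 85 bases before the start, that of Rsad2 120 bases and that of Cxcl10 213 bases before it. A match was found in 8 of the 11 tested list members with a promoter in the table, a member being counted if any of its windows held it. All 8 were called lower, as were 15 of the 16 list members tested. By window, which is another unit, the share was 2.98%.

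Immediate early and heat shock genes fell in all 17 members tested, with a median of -2.28. These genes are switched on within minutes to hours of a stimulus such as injury or handling of tissue. Fosb had 3.88, 2.76 and 2.22 CPM at 7 d, against 178, 75.8 and 24.7 CPM at 0 d (-4.97 ± 0.67, adjusted p = 2.93e-05), and -4.07 without the first 0 d replicate. Junb had 86.0, 50.3 and 62.4 CPM at 7 d, against 563, 521 and 355 CPM at 0 d (-2.86 ± 0.25, adjusted p = 4.42e-07). The phosphatase gene Dusp1 had 46.4, 33.6 and 29.9 CPM at 7 d, against 426, 359 and 232 CPM at 0 d (-3.21 ± 0.30, adjusted p = 9.26e-07). Ier3 had 20.7, 14.8 and 14.5 CPM at 7 d, against 236, 168 and 134 CPM at 0 d (-3.42 ± 0.25, adjusted p = 1.03e-07). The first 0 d replicate was the highest library and the third the lowest at 0 d for all 4 genes, and no group overlapped. How much of the 0 d level was present before extraction cannot be told apart from what followed it, since no library of intact tissue belongs to the 6.

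Single genes also fell in lists that were called in both directions. Gdnf, the glial cell line-derived factor, had 4.62, 0.816 and 1.42 CPM at 7 d, against 47.9, 28.0 and 18.2 CPM at 0 d (-3.78 ± 0.48, adjusted p = 1.62e-05), with -4.79 without the first 7 d replicate. Ctgf, a matricellular protein gene driven by mechanical and TGF-beta signals, had 93.3, 83.9 and 93.4 CPM at 7 d, against 1464, 1207 and 919 CPM at 0 d (-3.73 ± 0.22, adjusted p = 1.81e-08). The metalloproteinase inhibitor Timp3 had 159.7, 131 and 138 CPM at 7 d, against 1558, 1256 and 972 CPM at 0 d (-3.14 ± 0.26, adjusted p = 3.31e-07). Ctgf and Timp3 had their highest library in the first 0 d replicate. The protease Adamts1 had 105, 57.5 and 57.4 CPM at 7 d, against 547, 469 and 345 CPM at 0 d (-2.63 ± 0.23, adjusted p = 5.52e-07). Vegfa, a growth factor for vessels, had 177, 208 and 195 CPM at 7 d, against 612, 472 and 450.1 CPM at 0 d (-1.40 ± 0.14, adjusted p = 2.34e-06). All of these were lower in each 7 d library than in any 0 d library.

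Osteoblast regulators split. Of 14 tested, 6 rose and 4 fell, with a median of 0.079. Sp7, the transcription factor osterix that commits cells to the osteoblast line, had 550.3, 527 and 444 CPM at 7 d, against 267, 236 and 200.4 CPM at 0 d (1.11 ± 0.13, adjusted p = 7.36e-06). Msx1 and Dlx6, homeobox genes of jaw and tooth development, rose as well: Msx1 had 115, 95.5 and 87.4 CPM at 7 d, against 32.1, 24.2 and 24.3 CPM at 0 d (1.89 ± 0.18, adjusted p = 1.37e-06). The 7 d libraries of Msx1 lay well above those of 0 d. Dlx6 had 11.4, 17.1 and 11.9 CPM at 7 d, against 3.97, 3.56 and 2.44 CPM at 0 d (2.02 ± 0.21, adjusted p = 2.46e-06). Runx2, which acts upstream of Sp7, did not move with them: it had 289, 255 and 235 CPM at 7 d, against 290.1, 282 and 254 CPM at 0 d, and the groups overlapped (-0.086 ± 0.17, adjusted p = 0.727). Among the members that fell were Sox9, a regulator of cartilage, with 10.2, 8.97 and 6.89 CPM at 7 d, against 36.3, 26.0 and 16.4 CPM at 0 d (-1.60 ± 0.26, adjusted p = 0.00016). The first 0 d replicate was the highest for Sox9. Zbtb16, a zinc finger gene induced by glucocorticoids, had 2.77, 9.16 and 6.21 CPM at 7 d, against 53.1, 64.8 and 41.6 CPM at 0 d (-3.14 ± 0.40, adjusted p = 1.93e-05). Nfatc2 had 24.1, 16.5 and 13.9 CPM at 7 d, against 192, 123 and 74.7 CPM at 0 d (-2.84 ± 0.30, adjusted p = 3.22e-06).

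Genes for bone matrix and its mineralization were called in both directions, 6 higher and 3 lower of 19 tested, against 20.0% and 21.4% of all genes tested. The counts depended on the fit. With only the 9 control libraries 4 rose and 5 fell, and with library totals 8 rose and 3 fell. With only the groups compared, or without the third 0 d replicate, 4 rose and 3 fell. Smpd3, a sphingomyelinase needed for mineralization, had 338, 287 and 278 CPM at 7 d, against 62.9, 51.0 and 37.0 CPM at 0 d (2.58 ± 0.23, adjusted p = 6.11e-07). The channel gene Panx3 had 80.4, 97.0 and 101 CPM at 7 d, against 23.3, 23.6 and 14.6 CPM at 0 d (2.18 ± 0.19, adjusted p = 4.13e-07). Omd, which encodes osteomodulin, had 211, 256 and 199 CPM at 7 d, against 119, 85.2 and 54.5 CPM at 0 d (1.37 ± 0.34, adjusted p = 0.00409). Pth1r, the receptor for parathyroid hormone, had 466, 385 and 367 CPM at 7 d, against 211, 208 and 165 CPM at 0 d (1.06 ± 0.15, adjusted p = 4.59e-05). The 4 genes were higher in each 7 d library than in any 0 d library. Collagen and sialoprotein genes did not pass the test. Col1a1 had 79576, 47021 and 34131 CPM at 7 d, against 52989, 50524 and 32066 CPM at 0 d (0.25 ± 0.36, adjusted p = 0.629). Ibsp, bone sialoprotein, had 4967, 3741 and 4108 CPM at 7 d, against 3623, 3148 and 3056 CPM at 0 d (0.38 ± 0.19, adjusted p = 0.121), and the groups did not overlap although the call was missed. Bglap, osteocalcin, had 1389, 2173 and 2198 CPM at 7 d, against 2042, 1975 and 1059.7 CPM at 0 d (0.18 ± 0.34, adjusted p = 0.712). Reads of Bglap and its near-identical copy Bglap2 cannot be told apart with certainty. Members that fell included Spp1, osteopontin, which macrophages make as well as bone cells, with 3785, 4495 and 5801 CPM at 7 d, against 10589, 9379.7 and 8930.1 CPM at 0 d (-1.04 ± 0.24, adjusted p = 0.00265). Tnn, tenascin N, had 741, 556 and 279.8 CPM at 7 d, against 2292, 2058 and 1233 CPM at 0 d (-1.82 ± 0.38, adjusted p = 0.00117).

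The 3 d libraries showed different courses. At 0 d, 3 d and 7 d the libraries had 2042, 1975 and 1059.7 CPM, 478, 495 and 708 CPM and 1389, 2173 and 2198 CPM of Bglap. Every 3 d library was below every library of the other days, and 7 d against 3 d was called (1.78 ± 0.35, adjusted p = 0.00719). For Sp7 the same days gave 267, 236 and 200.4 CPM, 329.9, 344 and 365 CPM and 550.3, 527 and 444 CPM, with no overlap between neighbouring days. Within the bone matrix list 6 members were called at 7 d against 3 d, all 6 higher at 7 d, where 10.9% of all genes were called in either direction.

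Osteocyte genes differed among themselves: 2 rose and 5 fell of 9 tested. Dmp1, a matrix protein of osteocytes and odontoblasts, had 1197, 1141 and 968 CPM at 7 d, against 5477, 4203 and 3837 CPM at 0 d (-2.03 ± 0.29, adjusted p = 5.26e-05). Fam20c, the kinase that phosphorylates such proteins, had 115, 115 and 102 CPM at 7 d, against 340.1, 292 and 246 CPM at 0 d (-1.41 ± 0.25, adjusted p = 0.000284). Fgf23, the phosphate-regulating hormone, had 0.554, 1.38 and 0.740 CPM at 7 d, against 4.03, 5.24 and 6.16 CPM at 0 d (-2.52 ± 0.48, adjusted p = 0.000638). For the 3 genes that fell the groups lay well apart. The Wnt antagonist Dkk1 went the other way with 63.1, 67.5 and 70.6 CPM at 7 d, against 23.3, 26.5 and 20.1 CPM at 0 d (1.52 ± 0.31, adjusted p = 0.000885). Sost, which encodes sclerostin, had 189.8, 182 and 147 CPM at 7 d, against 80.5, 81.8 and 31.5 CPM at 0 d (1.42 ± 0.47, adjusted p = 0.0229); its call was lost without the first 7 d replicate (1.35 ± 0.53, adjusted p = 0.0551), the second 7 d replicate (1.39 ± 0.53, adjusted p = 0.0556) or the third 0 d replicate (1.09 ± 0.49, adjusted p = 0.1). The first 0 d replicate, the highest library for Dmp1, was also the highest for the dentine gene Dspp, and Dmp1 fell without it too (-1.85 ± 0.31, adjusted p = 0.000381).

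Osteoclast genes rose in part, 6 higher and 2 lower of 15 tested. Ctsk, the collagen-degrading cathepsin K, had 2951, 2608 and 2961 CPM at 7 d, against 1558, 1489 and 1228 CPM at 0 d (0.99 ± 0.20, adjusted p = 0.00105). Acp5, tartrate-resistant acid phosphatase, had 1842, 1449 and 1602 CPM at 7 d, against 1028, 1032 and 923 CPM at 0 d (0.71 ± 0.21, adjusted p = 0.0118). Atp6v0d2, a proton pump subunit, had 152, 161 and 200.4 CPM at 7 d, against 79.7, 78.3 and 75.8 CPM at 0 d (1.13 ± 0.23, adjusted p = 0.00098). In all 3 the lowest 7 d library was above the highest 0 d library. Oscar, a receptor that costimulates osteoclast formation, had 70.2, 48.3 and 48.7 CPM at 7 d, against 25.3, 23.4 and 20.7 CPM at 0 d (1.27 ± 0.21, adjusted p = 0.000205). The fusion gene Dcstamp had 41.1, 33.9 and 49.4 CPM at 7 d, against 21.9, 21.4 and 18.7 CPM at 0 d (1.01 ± 0.25, adjusted p = 0.00438). The 5 genes rose by between 0.71 and 1.27 on the log2 scale, with no overlap between groups. The transcription factor Nfatc1 had 178, 119.5 and 127 CPM at 7 d, against 204, 186 and 187 CPM at 0 d (-0.44 ± 0.20, adjusted p = 0.0926) and was not called with all libraries, but was without the first 7 d replicate (-0.64 ± 0.22, adjusted p = 0.0289). Car2, carbonic anhydrase 2, which red cell precursors also express, had 33.7, 37.0 and 59.5 CPM at 7 d, against 96.3, 159 and 234 CPM at 0 d (-1.91 ± 0.39, adjusted p = 0.00102). Without the first 7 d replicate the list had 4 members called lower. At 3 d, 12 members were called higher than at 0 d, where 16.4% of all genes were, and 5 were called lower at 7 d than at 3 d.

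Signals that govern osteoclasts fell in 4 of 5 genes tested, with a median of -1.57. Tnfsf11, which encodes RANKL, had 29.4, 24.0 and 28.6 CPM at 7 d, against 106, 108 and 91.6 CPM at 0 d (-1.90 ± 0.22, adjusted p = 8.59e-06). Tnfrsf11b, its decoy receptor osteoprotegerin, had 37.9, 41.4 and 44.6 CPM at 7 d, against 209.6, 154 and 179.6 CPM at 0 d (-2.13 ± 0.17, adjusted p = 1.65e-07). No library of either gene reached the other group. Csf1, the macrophage colony-stimulating factor, had 127, 102 and 104 CPM at 7 d, against 362, 317 and 311 CPM at 0 d (-1.57 ± 0.15, adjusted p = 9.04e-07). Il34, an alternative ligand of the same receptor, had 7.63, 8.28 and 8.26 CPM at 7 d, against 24.0, 23.2 and 18.5 CPM at 0 d (-1.44 ± 0.22, adjusted p = 0.000102). RANKL and its decoy receptor thus both fell, and the ratio of the 2 was not tested. The receptor gene Csf1r was not called, with 389.7, 249.6 and 247 CPM at 7 d, against 247, 247 and 258 CPM at 0 d (0.23 ± 0.24, adjusted p = 0.469).

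**Figure D4:**
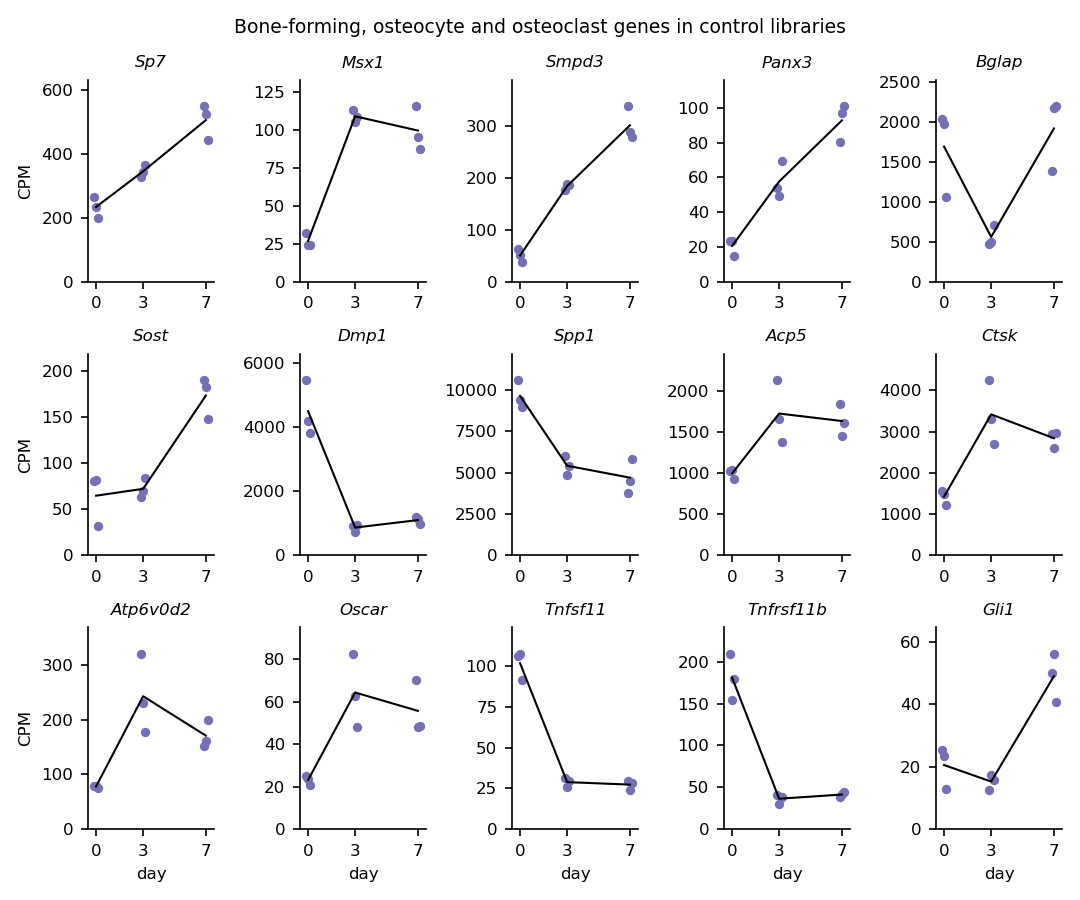
CPM in each control library (points) and group mean (line) at 0 d, 3 d and 7 d for 15 bone-forming, osteocyte and osteoclast genes, on axes that start at 0. Sp7, Smpd3 and Panx3 climb over all 3 days, Bglap dips at 3 d, the 4 osteoclast genes are highest at 3 d on average, and Dmp1, Tnfsf11 and Tnfrsf11b are low at both later days.

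Collagen genes were mostly not called. Of 11 fibrillar collagens 1 rose, Col24a1, a minor collagen of bone, with 166, 211 and 187 CPM at 7 d, against 105, 105 and 58.2 CPM at 0 d (1.08 ± 0.23, adjusted p = 0.00165). Col3a1 had 26018, 14409 and 9118 CPM at 7 d, against 13498, 11804 and 6539 CPM at 0 d (0.64 ± 0.34, adjusted p = 0.154), and was called without the third 7 d replicate (0.93 ± 0.33, adjusted p = 0.0396). The first 7 d replicate was the highest of the 6 libraries for this and most other collagen genes. Without that replicate Col5a3 was called lower (-0.68 ± 0.18, adjusted p = 0.00797), against 0.045 with all libraries. Of 15 other collagens 3 rose with all libraries, 1 rose without the third 0 d replicate, 1 rose and 4 fell without the first 7 d replicate, and 5 rose without the third 7 d replicate. Col8a1, a collagen of vessel walls and wound tissue, had 126, 60.0 and 63.2 CPM at 7 d, against 18.6, 14.3 and 8.84 CPM at 0 d (2.58 ± 0.29, adjusted p = 5.9e-06). Among 22 genes for collagen processing 7 rose and 1 fell. In that list 3 rose without the third 0 d replicate, 4 without the first 7 d replicate, and 15 with library totals in place of TMM. Serpinh1, the collagen chaperone HSP47, had 3689.8, 2909 and 2307 CPM at 7 d, against 1602, 1508 and 1026 CPM at 0 d (1.11 ± 0.21, adjusted p = 0.000507). P3h4, a partner of collagen prolyl hydroxylases, had 164, 132 and 123 CPM at 7 d, against 104, 93.1 and 58.9 CPM at 0 d (0.71 ± 0.17, adjusted p = 0.00319).

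Wound matrix genes were called in both directions: of 18 tested 5 rose and 3 fell, against 20.0% and 21.4% of all genes tested. With RLE size factors, with only the groups compared, without the second 0 d replicate or without the second 7 d replicate 3 rose. Lum, lumican, had 2099, 2048 and 1968 CPM at 7 d, against 905, 816 and 552 CPM at 0 d (1.43 ± 0.25, adjusted p = 0.00026). Ogn, osteoglycin, had 232, 267 and 291 CPM at 7 d, against 86.2, 70.7 and 46.6 CPM at 0 d (1.96 ± 0.28, adjusted p = 5.56e-05). Cthrc1, a secreted protein of activated fibroblasts, had 182, 176 and 179 CPM at 7 d, against 79.8, 81.8 and 51.0 CPM at 0 d (1.33 ± 0.17, adjusted p = 2e-05). Scx, a transcription factor of tendon and ligament cells, had 22.5, 13.7 and 10.1 CPM at 7 d, against 6.94, 5.83 and 4.51 CPM at 0 d (1.42 ± 0.29, adjusted p = 0.000927). Prg4, lubricin of joint surfaces, had 1.11, 0.878 and 0.513 CPM at 7 d, against 36.2, 30.1 and 56.4 CPM at 0 d (-5.62 ± 0.51, adjusted p = 8.06e-07), the largest fall in the ligament list. Rgs5, a pericyte gene, had 434, 445 and 485 CPM at 7 d, against 179, 129 and 119 CPM at 0 d (1.68 ± 0.19, adjusted p = 7.25e-06). The pericyte proteoglycan gene Cspg4 had 166, 114 and 82.8 CPM at 7 d, against 424, 366 and 312 CPM at 0 d (-1.61 ± 0.19, adjusted p = 9.17e-06), so that these pericyte genes moved in opposite directions. Acta2, smooth muscle actin, was not called with all libraries, with 180.3, 49.1 and 45.2 CPM at 7 d, against 53.6, 51.3 and 31.8 CPM at 0 d (1.01 ± 0.42, adjusted p = 0.0635). It was called without the second (1.31 ± 0.42, adjusted p = 0.0247) or the third 7 d replicate (1.33 ± 0.40, adjusted p = 0.0185), and at 3 d its libraries had 331, 253 and 442 CPM.

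Proteases that remodel matrix changed gene by gene. Of 14 matrix metalloproteinases 5 rose and 2 fell, and 3 rose without the third 0 d replicate or without the first 7 d replicate. Mmp11, stromelysin 3, had 32.2, 22.8 and 24.6 CPM at 7 d, against 4.03, 3.76 and 3.23 CPM at 0 d (2.85 ± 0.22, adjusted p = 1.42e-07). Mmp23 had 168, 110.2 and 94.0 CPM at 7 d, against 65.2, 64.6 and 36.9 CPM at 0 d (1.16 ± 0.22, adjusted p = 0.000567). Mmp16 had 31.2, 29.8 and 28.4 CPM at 7 d, against 20.5, 18.1 and 11.7 CPM at 0 d (0.83 ± 0.18, adjusted p = 0.00163). Every 7 d library was above every 0 d library for these 3. Mmp19, an enzyme of macrophages and vessel walls among other cells, had 48.9, 19.3 and 18.7 CPM at 7 d, against 164, 136 and 132 CPM at 0 d (-2.32 ± 0.30, adjusted p = 1.97e-05), and -2.92 without the first 7 d replicate. Mmp13, a collagenase, and Mmp9, a gelatinase of neutrophils and osteoclasts, were not called (-0.11 ± 0.24, adjusted p = 0.753 and 0.38 ± 0.29, adjusted p = 0.334).

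Wnt pathway genes were called in both directions, 9 higher and 6 lower of 33 tested, against 20.0% higher and 21.4% lower of all genes tested. Among ligands, Wnt5a, which signals outside the beta-catenin route, had 188, 56.8 and 57.5 CPM at 7 d, against 26.2, 16.9 and 20.1 CPM at 0 d (2.26 ± 0.39, adjusted p = 0.000263), and 1.44 without the first 7 d replicate. Wnt1 had 1.48, 2.38 and 0.911 CPM at 7 d, against 26.1, 23.4 and 17.2 CPM at 0 d (-3.80 ± 0.43, adjusted p = 6.08e-06). Wnt7b had 22.8, 7.03 and 8.89 CPM at 7 d, against 98.0, 74.5 and 56.8 CPM at 0 d (-2.57 ± 0.38, adjusted p = 6.23e-05), with -3.26 without the first 7 d replicate. Wnt5a thus rose and Wnt1 and Wnt7b fell. Among receptors Fzd2 had 58.9, 28.0 and 25.1 CPM at 7 d, against 6.48, 4.34 and 3.05 CPM at 0 d (3.02 ± 0.38, adjusted p = 1.47e-05). Lgr6, a receptor for R-spondins, had 55.1, 31.2 and 29.4 CPM at 7 d, against 118, 111 and 82.7 CPM at 0 d (-1.43 ± 0.22, adjusted p = 0.000119). Rspo3, an R-spondin, had 2.22, 2.13 and 2.28 CPM at 7 d, against 0.463, 0.194 and 0.122 CPM at 0 d (3.07 ± 0.43, adjusted p = 4.41e-05), and 3.76 without the first 0 d replicate. The secreted antagonists Sfrp1 and Sfrp4 went opposite ways. Sfrp1 had 158, 75.7 and 64.9 CPM at 7 d, against 28.6, 21.4 and 14.8 CPM at 0 d (2.20 ± 0.33, adjusted p = 7.51e-05). Sfrp4 had 159, 84.8 and 90.7 CPM at 7 d, against 301, 262 and 242 CPM at 0 d (-1.27 ± 0.24, adjusted p = 0.000535). Axin2, a target that reports beta-catenin signalling, had 19.2, 17.1 and 12.3 CPM at 7 d, against 13.8, 13.9 and 9.26 CPM at 0 d (0.40 ± 0.19, adjusted p = 0.109) and was not called with all libraries, but was without the third 7 d replicate (0.56 ± 0.19, adjusted p = 0.0328). With library totals 16 members of the list were called higher.

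Bone morphogenetic protein genes rose in 6 and fell in 6 of 21 tested, against 20.0% and 21.4% of all genes tested. Without the first 7 d replicate 5 rose and 4 fell. Bmp2, a ligand needed for fracture repair, had 43.0, 27.5 and 24.8 CPM at 7 d, against 343, 189 and 128 CPM at 0 d (-2.79 ± 0.29, adjusted p = 3.07e-06). Bmp4 had 37.3, 32.7 and 29.8 CPM at 7 d, against 15.6, 13.0 and 9.57 CPM at 0 d (1.39 ± 0.17, adjusted p = 1.35e-05). Bmp4 and Bmp2 thus moved in opposite directions. Bmp3, which opposes the other ligands, had 161, 187 and 169.5 CPM at 7 d, against 84.8, 94.9 and 64.4 CPM at 0 d (1.09 ± 0.19, adjusted p = 0.000247). Among regulators, the decoy receptor Bambi had 107, 122 and 149 CPM at 7 d, against 58.5, 50.5 and 38.6 CPM at 0 d (1.36 ± 0.18, adjusted p = 2.38e-05), and the target genes Id1 and Smad7 fell (-0.82 ± 0.16, adjusted p = 0.000849 and -0.76 ± 0.13, adjusted p = 0.000261). In the TGF-beta list 8 of 15 fell and 2 rose, with a median of -0.66; 1 rose without the second 0 d, the first 7 d or the third 7 d replicate, and none without the third 0 d replicate. Tgfb2 had 43.7, 39.9 and 30.9 CPM at 7 d, against 179.7, 141 and 105 CPM at 0 d (-1.89 ± 0.22, adjusted p = 7.39e-06). Inhba, the activin A subunit, had 93.9, 56.8 and 59.0 CPM at 7 d, against 436, 329 and 372 CPM at 0 d (-2.44 ± 0.37, adjusted p = 8.6e-05).

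Some hedgehog pathway genes rose. Gli1, a direct target of hedgehog signals, had 49.9, 56.2 and 40.9 CPM at 7 d, against 25.3, 23.3 and 13.0 CPM at 0 d (1.26 ± 0.21, adjusted p = 0.000227). The transducer Smo had 134, 122 and 119.7 CPM at 7 d, against 78.1, 80.0 and 53.7 CPM at 0 d (0.83 ± 0.14, adjusted p = 0.000232). The list, which also holds Pth1r, had 4 rises and no fall among 10 genes tested, and 7 rises with library totals. At 3 d the libraries had 12.7, 17.2 and 15.8 CPM of Gli1, which overlap those of 0 d and lie below those of 7 d (1.69 ± 0.22, adjusted p = 0.00132 for 7 d over 3 d). Igf1, insulin-like growth factor 1, had 159, 259.9 and 310.1 CPM at 7 d, against 68.1, 53.7 and 51.4 CPM at 0 d (2.07 ± 0.21, adjusted p = 2.23e-06). Igfbp4, which binds it, had 1339, 615 and 605 CPM at 7 d, against 302, 276 and 255 CPM at 0 d (1.62 ± 0.25, adjusted p = 9.73e-05). Of the 11 genes of that family 6 rose and 2 fell. Without the third 0 d replicate 2 rose and 1 fell, without the first 7 d replicate 3 rose, and without the second 7 d replicate 1 fell.

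Vessel genes did not move as a group. Aplnr, the apelin receptor of sprouting endothelium, had 183, 131 and 111 CPM at 7 d, against 8.07, 5.18 and 7.92 CPM at 0 d (4.32 ± 0.23, adjusted p = 7.9e-09), and at 3 d its libraries had 133, 111 and 135 CPM. The angiopoietin receptor Tek had 52.9, 51.1 and 44.5 CPM at 7 d, against 31.3, 24.1 and 21.7 CPM at 0 d (0.95 ± 0.17, adjusted p = 0.000291). Vegfc, a growth factor for lymphatic vessels, had 10.5, 8.85 and 7.46 CPM at 7 d, against 4.69, 2.65 and 3.23 CPM at 0 d (1.34 ± 0.25, adjusted p = 0.000529). These genes were higher in each 7 d library. Flt1, a receptor for the product of Vegfa, had 81.6, 78.7 and 57.0 CPM at 7 d, against 173, 141 and 150.1 CPM at 0 d (-1.10 ± 0.18, adjusted p = 0.00016). Vwf, von Willebrand factor, which platelets carry too, had 64.6, 33.3 and 31.5 CPM at 7 d, against 103, 128 and 154 CPM at 0 d (-1.57 ± 0.28, adjusted p = 0.000294). Of 20 genes tested 3 rose and 7 fell, with 4 falling without the third 0 d replicate, the second 7 d replicate or the third 7 d replicate. Emcn and Kdr, defining genes of endothelium, were not called (0.17 ± 0.17, adjusted p = 0.463 and 0.20 ± 0.21, adjusted p = 0.488).

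Red cell and platelet genes were far lower at 7 d. Of 15 red cell genes tested 14 fell, with summed levels of 800.0 to 1148 CPM at 7 d, against 11630.3 to 13814 CPM at 0 d and a median of -4.20. Hba-a1, an alpha globin gene with a near-identical copy, had 313, 219 and 314 CPM at 7 d, against 4915, 5597 and 4358 CPM at 0 d (-4.14 ± 0.33, adjusted p = 1.89e-07). Alas2, the haem synthesis enzyme of red cell precursors, had 14.3, 11.5 and 11.3 CPM at 7 d, against 189, 262 and 325 CPM at 0 d (-4.39 ± 0.28, adjusted p = 3.61e-08). Slc4a1, the anion exchanger of the red cell membrane, had 3.51, 5.65 and 13.2 CPM at 7 d, against 162, 287 and 586 CPM at 0 d (-5.53 ± 1.03, adjusted p = 0.000483). Slc4a1 had -4.91 without the third 0 d replicate and -6.24 without the third 7 d replicate. Tfrc, which many dividing cells express, was not called (-0.065 ± 0.28, adjusted p = 0.884). Of 11 platelet and megakaryocyte genes 10 fell, with summed levels of 939 to 1058 CPM at 7 d, against 2442 to 3046 CPM at 0 d: Pf4, platelet factor 4, had 24.4, 17.6 and 29.0 CPM at 7 d, against 140.2, 171 and 152 CPM at 0 d (-2.70 ± 0.27, adjusted p = 1.98e-06). Itga2b, an integrin of platelets, had 19.9, 15.7 and 18.6 CPM at 7 d, against 179, 234 and 277 CPM at 0 d (-3.67 ± 0.39, adjusted p = 3.23e-06).

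Neutrophil genes were lower at 7 d in all 16 members tested, of which 11 passed the test and none rose. Groups overlapped in no member. Leaving out 1 library left 12 calls without the first 0 d replicate, 5 calls without the second 0 d replicate, 3 without the third 0 d replicate, 4 without the first or second 7 d replicate and 3 without the third 7 d replicate. Summed levels were 4618 to 6378 CPM at 7 d, against 10764 to 22203 CPM at 0 d. Csf3r, the receptor for the product of Csf3, had 64.5, 67.3 and 56.6 CPM at 7 d, against 189, 192 and 317 CPM at 0 d (-1.89 ± 0.20, adjusted p = 3.42e-06). Cxcr2, the receptor for Cxcl1 and Cxcl2, had 22.2, 27.2 and 32.6 CPM at 7 d, against 118, 137 and 235 CPM at 0 d (-2.58 ± 0.29, adjusted p = 5.18e-06). These 2 receptor genes fell in each fit with 1 library left out. Csf3 and the Cxcl genes fell together with these neutrophil genes, and the part of neutrophil number in their change was not tested.

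Macrophage genes were called in both directions, 7 lower and 4 higher of 19 tested, against 21.4% and 20.0% of all genes tested. Without the third 0 d or the first 7 d replicate 5 fell and 3 rose, and without the third 7 d replicate 5 fell and 4 rose. Cd14, a receptor for bacterial products, had 28.8, 11.0 and 17.0 CPM at 7 d, against 341, 311 and 263 CPM at 0 d (-4.01 ± 0.36, adjusted p = 6.61e-07). Ccr2, the receptor of blood monocytes for Ccl2, averaged 38.5 ± 15.6 CPM at 7 d, against 101 ± 39.1 CPM at 0 d (SD, n = 3 each), with a log2 fold change of -1.39 ± 0.31, adjusted p = 0.00218. Cx3cr1, the receptor of patrolling and tissue macrophages, had 19.7, 22.5 and 20.0 CPM at 7 d, against 3.64, 1.49 and 2.56 CPM at 0 d (3.01 ± 0.43, adjusted p = 5.26e-05). Its levels at 7 d were several times those at 0 d. Trem2, a lipid receptor of tissue macrophages, had 21.7, 17.9 and 21.1 CPM at 7 d, against 10.1, 10.5 and 9.20 CPM at 0 d (1.03 ± 0.17, adjusted p = 0.000167). Adgre1, which encodes F4/80, had 40.4, 37.0 and 37.8 CPM at 7 d, against 22.3, 20.5 and 22.3 CPM at 0 d (0.82 ± 0.20, adjusted p = 0.00328). The broad markers Cd68 and Csf1r had groups that overlapped and were not called. In the antigen-presenting class II list 4 of 7 fell and none rose, for example Cd74 (-1.42 ± 0.30, adjusted p = 0.00123).

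Of 15 B cell genes 7 fell and 1 rose, and 3 fell without the third 0 d replicate and 4 without the first 7 d replicate. Cd79a, part of the B cell receptor, had 7.39, 15.2 and 11.8 CPM at 7 d, against 31.7, 39.1 and 48.2 CPM at 0 d (-1.79 ± 0.42, adjusted p = 0.00272). The member that rose was Ebf1, which stromal cells express too, with 31.8, 40.8 and 32.8 CPM at 7 d, against 23.5, 21.8 and 23.6 CPM at 0 d (0.61 ± 0.14, adjusted p = 0.00185). T and NK cell genes summed to 26.0 to 30.7 CPM at 7 d, against 52.8 to 83.3 CPM at 0 d, and 3 of 14 were called lower, or 5 without the first 7 d replicate and 2 without the third 0 d or the second 7 d replicate. Of all genes tested 21.4% were called lower, so the T and NK cell list did not stand apart by its count. The mast cell protease gene Mcpt2 was at 0 counts at 0 d and at 3.69, 5.40 and 2.22 CPM at 7 d, at least 59.0-fold higher, whereas Kit, the stem cell factor receptor of mast cells and precursors, had 19.9, 15.1 and 15.3 CPM at 7 d, against 35.2, 32.6 and 39.4 CPM at 0 d (-1.09 ± 0.14, adjusted p = 2.13e-05).

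Cell cycle genes fell in 17 of 24 tested and none rose, with a median of -0.95. Rrm2, a subunit of ribonucleotide reductase, had 32.8, 26.4 and 26.6 CPM at 7 d, against 58.8, 82.3 and 135 CPM at 0 d (-1.69 ± 0.25, adjusted p = 8.18e-05). Ccne1, cyclin E1, had 5.79, 5.33 and 4.39 CPM at 7 d, against 10.8, 15.7 and 19.8 CPM at 0 d (-1.58 ± 0.23, adjusted p = 6.55e-05). Mcm2, of the replicative helicase, had 28.2, 20.3 and 19.4 CPM at 7 d, against 39.3, 56.8 and 75.3 CPM at 0 d (-1.34 ± 0.23, adjusted p = 0.000232). The third 0 d replicate was the highest library for each, and Mki67, a marker of cycling cells, had 106, 144 and 120.1 CPM at 7 d, against 148, 209 and 433 CPM at 0 d (-1.10 ± 0.30, adjusted p = 0.00845). Without that replicate Mki67 was not called (-0.54 ± 0.23, adjusted p = 0.082). The red cell genes Slc4a1 and Alas2 were also highest in that replicate, whereas Hba-a1 was at its lowest 0 d level there. Summed levels of the red cell list were 11630.3, 13814 and 12871.5 CPM at 0 d, in replicate order, so the sum was not highest in that replicate. The part of red cell precursors in the level of the cycle genes at 0 d was not tested. At 3 d the libraries had 66.2, 54.2 and 83.2 CPM of Rrm2, and 18 members were called lower at 7 d than at 3 d.

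Ribosome biogenesis genes fell in 14 of 15 tested, with a median of -1.43 and no overlap in any member. Rrp12, needed for export of ribosomal subunits, had 11.2, 10.2 and 7.40 CPM at 7 d, against 76.1, 59.0 and 64.5 CPM at 0 d (-2.79 ± 0.16, adjusted p = 1.51e-08). Nop2, a methyltransferase of ribosomal RNA, had 31.9, 26.6 and 25.9 CPM at 7 d, against 117, 103 and 98.2 CPM at 0 d (-1.91 ± 0.10, adjusted p = 9.23e-09). Polr1b, a subunit of RNA polymerase I, had 22.0, 18.1 and 19.2 CPM at 7 d, against 68.6, 72.1 and 59.4 CPM at 0 d (-1.75 ± 0.11, adjusted p = 2.64e-08). For the 3 genes every 0 d library was above every 7 d library. Npm1, nucleophosmin, was not called (-0.50 ± 0.22, adjusted p = 0.0826).

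Glycolysis and hypoxia response genes fell in 15 of 20 tested and rose in 1, with a median of -1.02. Hk2, hexokinase 2, had 26.1, 19.1 and 17.3 CPM at 7 d, against 171, 153 and 135 CPM at 0 d (-2.88 ± 0.19, adjusted p = 3.77e-08). Pfkfb3, an activator of glycolytic flux, had 57.1, 61.5 and 59.3 CPM at 7 d, against 336, 282 and 243 CPM at 0 d (-2.28 ± 0.19, adjusted p = 4.13e-07). The glucose transporter gene Slc2a1 had 26.8, 11.4 and 13.3 CPM at 7 d, against 90.8, 85.4 and 98.9 CPM at 0 d (-2.42 ± 0.25, adjusted p = 3.05e-06). The gene that rose was Pdk1, which holds pyruvate back from mitochondria, with 33.3, 34.1 and 38.3 CPM at 7 d, against 18.6, 19.4 and 19.9 CPM at 0 d (0.87 ± 0.13, adjusted p = 0.000102). The hypoxia targets Car9 and Bnip3 were not called (0.074 ± 0.28, adjusted p = 0.865 and -0.14 ± 0.12, adjusted p = 0.377). None of the 13 mitochondrially encoded transcripts was called, and their median was 0.17. Of 8 fat genes tested 3 fell and 1 rose, with a median of -1.76, against 21.4% lower and 20.0% higher of all genes tested. Fabp4, a fatty acid carrier, had 14.7, 16.6 and 15.8 CPM at 7 d, against 96.5, 107 and 109 CPM at 0 d (-2.73 ± 0.20, adjusted p = 9.88e-08). The member that rose was Lpl, lipoprotein lipase, with 159, 207 and 197 CPM at 7 d, against 48.5, 46.4 and 33.5 CPM at 0 d (2.13 ± 0.16, adjusted p = 1.37e-07).

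Clock genes changed in nearly all members, 4 higher and 14 lower of 19 tested. In the circadian loop CLOCK or NPAS2 pairs with ARNTL to switch on Per, Cry and Nr1d genes, whose products feed back on the pair. Arntl had 41.9, 37.8 and 32.1 CPM at 7 d, against 20.1, 20.3 and 18.8 CPM at 0 d (0.92 ± 0.15, adjusted p = 0.000136). Npas2 had 39.4, 28.3 and 22.2 CPM at 7 d, against 9.39, 10.5 and 10.6 CPM at 0 d (1.56 ± 0.21, adjusted p = 3.14e-05). Both were higher in every 7 d library than in any 0 d library. Per2 had 9.54, 15.9 and 18.6 CPM at 7 d, against 93.4, 83.4 and 60.8 CPM at 0 d (-2.43 ± 0.22, adjusted p = 6.61e-07). Cry2 had 16.5, 17.7 and 14.8 CPM at 7 d, against 53.1, 53.7 and 43.5 CPM at 0 d (-1.62 ± 0.15, adjusted p = 1.09e-06). Neither gene had overlapping groups. Nr1d1, which encodes REV-ERB alpha, had 38.6, 39.2 and 25.6 CPM at 7 d, against 167, 120.1 and 48.8 CPM at 0 d (-1.70 ± 0.35, adjusted p = 0.00122). Arntl and Npas2 thus moved opposite to Per2, Cry2 and Nr1d1. The output regulator Dbp had 5.97, 9.66 and 6.72 CPM at 7 d, against 46.3, 45.1 and 15.6 CPM at 0 d (-2.26 ± 0.38, adjusted p = 0.000237), and at 3 d 53.6, 48.7 and 54.8 CPM, with no overlap between 3 d and 7 d. With no record of the hour at which tissue was taken, the day and the hour cannot be told apart for these genes.

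CACGTG, the E-box that CLOCK and ARNTL bind, lies in the 250-base windows of Bhlhe41 (chr6:145865421-145865670, minus strand) and Cry1 (chr10:85185055-85185304, minus strand), the 2 called clock genes with the largest falls that hold it.
Bhlhe41: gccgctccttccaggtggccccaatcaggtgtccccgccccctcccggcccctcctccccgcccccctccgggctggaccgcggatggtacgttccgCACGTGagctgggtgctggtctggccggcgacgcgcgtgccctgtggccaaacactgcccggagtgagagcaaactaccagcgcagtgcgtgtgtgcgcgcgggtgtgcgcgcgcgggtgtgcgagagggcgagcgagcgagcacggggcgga
Cry1: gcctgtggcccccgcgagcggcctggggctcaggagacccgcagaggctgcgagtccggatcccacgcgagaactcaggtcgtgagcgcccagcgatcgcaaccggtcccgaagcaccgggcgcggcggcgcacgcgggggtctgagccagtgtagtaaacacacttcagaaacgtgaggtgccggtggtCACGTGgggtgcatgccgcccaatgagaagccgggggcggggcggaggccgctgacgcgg
Bhlhe41, a repressor of the loop, had 7.70, 10.9 and 10.4 CPM at 7 d, against 39.2, 38.1 and 23.1 CPM at 0 d (-1.79 ± 0.22, adjusted p = 1.41e-05). Cry1 had 16.9, 21.6 and 15.6 CPM at 7 d, against 42.5, 44.6 and 47.2 CPM at 0 d (-1.31 ± 0.17, adjusted p = 1.59e-05). The pattern was found in 5 of the 16 tested clock genes with a promoter in the table, a gene being counted if any of its windows held it. All 5 were called lower, as were 14 of the 19 clock genes tested. By window, which is another unit, the share was 6.02%.

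**Figure D5:**
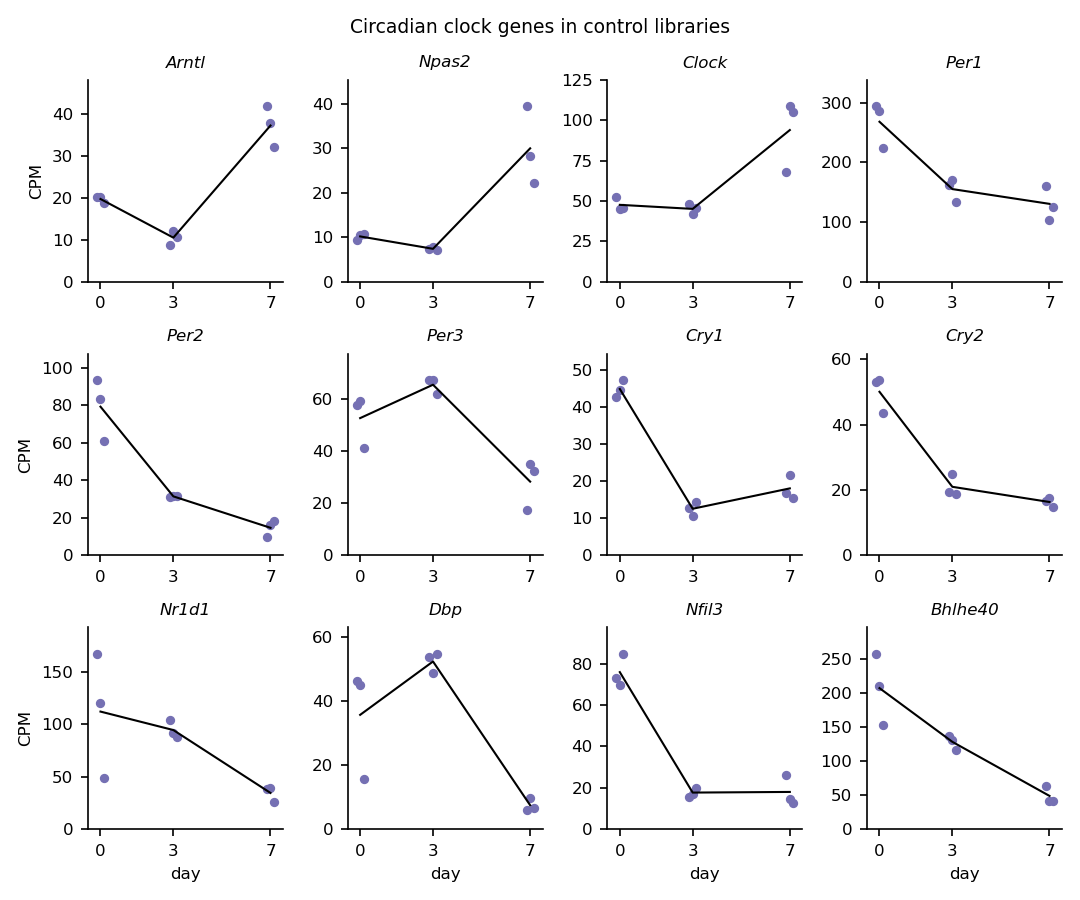
CPM in each control library (points) and group mean (line) at 0 d, 3 d and 7 d for 12 clock genes, on axes that start at 0. Arntl, Npas2 and Clock are highest at 7 d, Per2, Cry2, Nfil3 and Bhlhe40 are highest at 0 d, and Per3 and Dbp are highest at 3 d on average and lowest at 7 d.

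Further genes had large changes. Lrrc55, an auxiliary subunit of potassium channels, had 17.8, 10.2 and 10.1 CPM at 7 d, against 0.198, 0.129 and 0.427 CPM at 0 d (5.60 ± 0.49, adjusted p = 4.91e-07), with 6.21 without the third 0 d replicate. Spon2, a secreted protein of the spondin family, had 149, 113 and 81.8 CPM at 7 d, against 5.22, 5.18 and 1.10 CPM at 0 d (4.91 ± 0.45, adjusted p = 8.08e-07). Spon2 had 12.6, 16.4 and 16.8 CPM at 3 d, and was called higher again at 7 d than at 3 d (2.91 ± 0.40, adjusted p = 0.00183). Brinp3 and Glycam1 were at 0 counts at 0 d and at least 74.4-fold and 17.6-fold higher at 7 d, with 12.4, 1.13 and 0.684 CPM and 2.83, 0.376 and 0.171 CPM in the 7 d libraries. The first 7 d replicate was the highest for both. Without that replicate the bounds were 14.2-fold for Brinp3, still called (adjusted p = 0.0051), and 4.29-fold for Glycam1, whose call was lost (adjusted p = 0.112). Glycam1 was also not called when any 1 of the 0 d replicates was left out. Among falls, the neuronal pentraxin Nptx1 had 0.185, 0.251 and 0 CPM at 7 d, against 20.9, 16.7 and 16.0 CPM at 0 d (-6.90 ± 1.16, adjusted p = 0.000221). Btnl10 had 0.616, 0.690 and 0.456 CPM at 7 d, against 14.9, 18.0 and 46.3 CPM at 0 d (-5.48 ± 0.95, adjusted p = 0.000281), with -4.79 without the third 0 d replicate. Nptx1 rested on 7 counts over the 7 d libraries and was called when any 1 of the 6 libraries was left out. Krt81 and Gnat1 were at 0 counts at 7 d and at least 31.0-fold and 18.5-fold lower than at 0 d, and with DESeq2 Krt81 was not called (adjusted p = 0.137). Nat8f3, Irs3 and Gm2115 rose by between 3.97 and 4.50 on the log2 scale. Gm9918, Adamts16 and Gm11627 rose too, but had 1, 2 and 2 counts over the 0 d libraries. Their ratios of 7 d over 0 d were 52.0 (exact 95% interval 8.94 to 2089) for Gm9918, 35.9 (9.60 to 302) for Adamts16 and 29.8 (7.90 to 251) for Gm11627, intervals that cover counting error only. The first 7 d replicate was the highest for Adamts16, with 3.88, 0.376 and 0.399 CPM in the 7 d libraries.

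The 3 largest rises after zero-count genes are set aside rested on 1 library of the 7 d group. Dmbt1, a mucin-like glycoprotein of salivary and other glands, had 1.11, 1.51 and 335 CPM at 7 d, against 0, 0.129 and 0.0610 CPM at 0 d (adjusted p = 0.0131), on 3 counts over the 0 d libraries. Its ratio was 1866 (exact 95% interval 638 to 9052), an interval that covers counting error only and not the spread between libraries. Wfdc18 had 2.15, 3.20 and 556 CPM at 7 d, against 1.12, 1.81 and 0.853 CPM at 0 d (7.21 ± 2.07, adjusted p = 0.011). Bpifb9a had 2.52, 6.27 and 137 CPM at 7 d, against 0.529, 2.01 and 0 CPM at 0 d (5.85 ± 1.48, adjusted p = 0.00605). Without the third 7 d replicate none was called: Dmbt1 had an adjusted p of 0.272, Wfdc18 had 1.08 ± 1.44, adjusted p = 0.619 and Bpifb9a 2.37 ± 1.25, adjusted p = 0.17. DESeq2 gave no adjusted p for Dmbt1 and Wfdc18. Dmbt1 was also lost without the third 0 d replicate (adjusted p = 0.0511), and without the second 0 d replicate the change of Bpifb9a was 7.51. At 3 d the control libraries had 0.0556, 119 and 0 CPM of Dmbt1, and 0.334, 42.3 and 1.74 CPM of Wfdc18. Bpifb9a had 0, 0 and 0.496 CPM in them. Dmbt1 was called higher at 3 d than at 0 d (9.11 ± 3.16, adjusted p = 0.0349). The salivary gland list had 4 of 10 members above the filter, none called. Their summed levels were 13.2, 6.59 and 16.6 CPM at 7 d, against 6.94, 12.7 and 8.29 CPM at 0 d. Members below the filter are not in these sums, and a gland origin of Dmbt1, Wfdc18 and Bpifb9a transcripts was not tested. The dentine gene Dspp was called lower with all libraries (-4.81 ± 1.44, adjusted p = 0.0137) and not without the first 0 d replicate (-0.25 ± 1.08, adjusted p = 0.891), the second 7 d (-4.39 ± 1.69, adjusted p = 0.0585) or the third 7 d replicate (-4.26 ± 1.60, adjusted p = 0.0527). Of 13 skeletal muscle genes Actn3 was called higher (1.46 ± 0.32, adjusted p = 0.00177) and none lower, with a median of -1.60. With only the groups compared 5 of 12 were called lower, and with only the 9 control libraries 4 of 12. Genes of autonomic neurons, which were abundant in other libraries of the series, summed to 20.5 to 26.0 CPM at 7 d, against 27.6 to 39.5 CPM at 0 d, with none of 17 called. With only the groups compared 3 of 9 were called lower, without the 5 neuron-rich libraries 3 of 14, and with DESeq2 1 of 17 was called higher. The second control 3 d replicate was among the neuron-rich libraries.

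In the periodontitis arm 39.1% of genes were called between 7 d and 0 d, and the change differed between the arms for 8 genes (0.0428% of those tested; 2990 at an unadjusted p under 0.05). That count was between 2 (without the second or the third control 7 d or the third periodontitis 7 d replicate) and 419 (without the second periodontitis 0 d replicate) when 1 library was left out. Leaving out the 5 libraries rich in neuron transcripts left 1 periodontitis 0 d library, so no count is given for that fit. Heatr1 and Pus7 are named here after their values were seen. At 7 d the periodontitis libraries had 186, 133 and 178 CPM of Aplnr, against 56.6, 40.4 and 49.1 CPM at 0 d (1.77 ± 0.20, adjusted p = 1.07e-05), and the difference of the 2 changes, periodontitis minus control, was -2.56 ± 0.29, adjusted p = 0.00338. At 7 d the libraries of the arms overlapped, and at 0 d every periodontitis library was above every control library. Heatr1, which acts in ribosome assembly, had 28.3, 28.4 and 23.8 CPM at 7 d, against 110.1, 107 and 131 CPM at 0 d in the control arm, and 34.6, 32.6 and 35.9 CPM at 7 d, against 59.4, 66.5 and 64.1 CPM at 0 d in the periodontitis arm (difference 1.24 ± 0.17, adjusted p = 0.0157). The pseudouridine synthase gene Pus7 had 19.9, 17.8 and 18.1 CPM at 7 d, against 68.4, 55.7 and 62.3 CPM at 0 d in the control arm, and 24.2, 25.4 and 27.0 CPM at 7 d, against 35.5, 40.2 and 44.3 CPM at 0 d in the periodontitis arm (difference 1.09 ± 0.16, adjusted p = 0.02). In each of the 3 the change was the larger one in control sockets.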

How the data were processed

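Raw whole-number read counts per gene for 18 libraries of total RNA were deposited by the authors in 1 table. HISAT2, StringTie and SAMtools are named in the submitters' processing notes, together with the mouse build mm9, while 98.3% of the gene coordinates in the table match GENCODE M21 on GRCm38; the strandedness of counting is not given in the sources used here. Samples were grouped by their titles. Counts were fitted with edgeR 4.0.16 (R 4.3.3, limma 3.58.1): TMM scaling, genes kept by filterByExpr over the 6 groups, a quasi-likelihood fit with 6 group means on all 18 libraries, and Benjamini-Hochberg adjustment over 18697 genes. Depth was 14953146 to 17127281 counts in the 6 libraries, which limits precision for genes of a few counts. Counts were also simulated for 7 d against 0 d over 18310 genes, with 100 genes changed 2-fold, 100 changed 4-fold and all others equal between groups. The changed genes were drawn from genes above an expression floor, with as many rises as falls. The test recovered 67% of the 2-fold and 96% of the 4-fold changes, and 3.6% of its calls were unchanged genes. These shares hold for that setting and were not measured for genes of few counts or with 41.3% of genes called. Where all libraries of a group were at 0, a fold is a bound with 3 counts over the group. The rule for named genes took the 15 largest rises and 15 largest falls among called protein-coding genes of at least 1 CPM with groups that did not overlap, up to 4 called members of each list by p, 10 bone and cytokine markers, and other list members whose role is described. The members and the gene lists were chosen with earlier results of these data known. Promoters are from RefSeq, and motifs were searched on both strands. Some genes that the rule covers are not reported here. No 2 libraries of the 7 d group, or of the 0 d group, agreed within sampling noise. Alternatives were other scaling and filters, DESeq2 1.42.0, other sets of libraries, a replicate block and leaving out each library; the first 0 d and the third 7 d replicate were also left out together, an alternative chosen after seeing the data.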

Additional observations from a re-analysis of the deposited data

Results flagged for a closer look

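For 8 genes the 7 d over 0 d change differed between the arms (edgeR's test of the difference, periodontitis minus control, adjusted p under 0.05). For Aplnr the difference was -2.56, as described above. Tfpi2, an inhibitor of tissue factor and plasmin, had 13.5, 14.9 and 14.4 CPM at 7 d, against 114, 98.9 and 137 CPM at 0 d in control sockets, where the change was -3.03, and 15.2, 16.6 and 14.7 CPM at 7 d, against 34.3, 43.4 and 40.1 CPM at 0 d with periodontitis, a difference of 1.69. Bpgm, which makes 2,3-bisphosphoglycerate in red cells, changed by -2.47 in control sockets, with a difference of 1.12. Heatr1, Nat10, Pus7 and Nop16, which act in making ribosomes or modifying RNA, fell in control sockets (-2.12, -1.17, -1.74 and -1.50), and their differences were 1.24, 0.804, 1.09 and 0.837. Il23a, a subunit of interleukin-23, had 0.246, 0.565 and 0.285 CPM at 7 d, against 0.198, 0.324 and 0.183 CPM at 0 d and was not called in control sockets (0.62 ± 0.45, adjusted p = 0.368), and had 0.351, 0.389 and 0.276 CPM at 7 d, against 2.94, 2.92 and 2.77 CPM at 0 d with periodontitis, a difference of -3.68.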

How the results depend on the processing

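The number of genes called was between 6023 and 8134 under all alternatives, against 7724 as reported, and between 6426 and 7503 when 1 library was left out (3074 to 3676 higher, 3338 to 3827 lower). Of 379 called genes followed by name, 278 were called in every fit that held them, and none of them changed sign, except Dspp without both the first 0 d and the third 7 d replicate. The number of genes that differed between arms was less stable. It was 110 with no low-count filter, 4 with lists of other tissues removed, 1 with only the groups compared and 712 with DESeq2. When 1 library was left out it was 2 to 419, with 419 without the second periodontitis 0 d replicate. The cause was not tested. Without the 5 neuron-rich libraries 1 periodontitis 0 d library was left, so no count is given for the difference between arms. Of 294 followed genes that were not called, 118 had both signs among the alternatives, and 25 of 777 recomputed list medians had the opposite sign. Without both the first 0 d and the third 7 d replicate, 3 neutrophil, 1 class II, 4 B cell and 3 vessel genes were called lower, against 11, 4, 7 and 7, and 14 Wnt and 12 collagen-processing genes higher, against 9 and 7. A call and a change of sign came together for 4 genes. When 1 library was left out, the enamel protease gene Mmp20 had between -2.29 and 6.41 (without the first 0 d replicate), Col5a3 between -0.68 (without the first 7 d replicate) and 0.34, and Cxcl5 between -1.79 (without the first 7 d replicate) and 0.64. Without both the first 0 d and the third 7 d replicate Mmp20 had 6.86 and Dspp 0.30. Deviations of same-numbered libraries correlated at 0.042, -0.177 and 0.043, so the numbers were not taken as pairs, and with the replicate block 7593 genes were called (3636 higher and 3957 lower), with 8 for the difference between arms. Genes with a few counts at this depth have wide errors.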

Other observations

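Other lists were called in both directions, against 20.0% of all genes called higher and 21.4% called lower. Among 13 metalloproteinase inhibitor and ADAMTS genes 4 rose and 5 fell: Timp1, an inhibitor of metalloproteinases, had 366, 212 and 208 CPM at 7 d, against 904, 686 and 654 CPM at 0 d (-1.51 ± 0.26, adjusted p = 0.000292). Adamts15, a protease of proteoglycans, had 20.0, 20.5 and 18.8 CPM at 7 d, against 9.26, 10.8 and 8.35 CPM at 0 d (1.06 ± 0.20, adjusted p = 0.000572). Of 15 complement genes 4 rose and 3 fell, and 1 rose without the second or the third 0 d replicate and 2 without the first or second 7 d replicate. C5ar1, the receptor for the fragment C5a on neutrophils and macrophages, had 20.9, 15.6 and 12.9 CPM at 7 d, against 54.5, 59.8 and 89.4 CPM at 0 d (-2.04 ± 0.28, adjusted p = 3.77e-05). Of 16 nerve growth and guidance genes 5 rose and 2 fell. In that list 3 rose with only the groups compared or only the 9 control libraries, 2 rose without the third 0 d replicate, and 3 without the second 0 d, the first 7 d or the third 7 d replicate. The guidance gene Slit2 had 173, 213 and 208 CPM at 7 d, against 134, 123 and 98.0 CPM at 0 d (0.74 ± 0.19, adjusted p = 0.00474). Among 12 Schwann cell genes 1 rose and 3 fell, and 1 fell when any 1 library other than the third 0 d replicate was left out, or 2 without that replicate. S100b, which glia and cartilage cells share, had 13.7, 14.4 and 15.9 CPM at 7 d, against 4.96, 3.82 and 3.78 CPM at 0 d (1.81 ± 0.29, adjusted p = 0.000123). Among 13 cartilage genes 3 rose and 2 fell, or 2 rose without the first 7 d replicate. Col9a1, a cartilage collagen, had 3.26, 2.38 and 1.82 CPM at 7 d, against 0.331, 0.453 and 0.244 CPM at 0 d (2.84 ± 0.43, adjusted p = 8.25e-05), at low levels in both groups.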
